A study of Homo sapiens with 4 samples.

Results

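The HOX genes are the homeobox transcription factors of the HOXA, HOXB, HOXC and HOXD clusters. They were taken as every protein-coding gene whose symbol is HOXA, HOXB, HOXC or HOXD followed by a number and nothing else, which gave 39 genes out of the 60671 gene identifiers in the table: 11 HOXA, 10 HOXB, 9 HOXC and 9 HOXD genes. RNA was sequenced from SK-N-BE(2) cells, a human neuroblastoma line with amplified MYCN, in 4 libraries. The 2 control libraries (shNC) carried a non-targeting short hairpin RNA. In the 2 knockdown libraries (shMETTL14), a hairpin targeted METTL14, the partner subunit of METTL3 in the complex that writes N6-methyladenosine (m6A) on mRNA. All cells had been infected with lentivirus and selected with puromycin, the labels do not say which METTL14 hairpin the sequenced cells carried, and 1 cell line was measured. Nothing in the sources says that the libraries of a group came from separate cultures, so p-values measure only the spread between these libraries, which may be technical.

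HOX genes lie in their clusters in the order in which they are used along the body axis, from the anterior genes with low numbers at the 3′ end to the posterior genes with high numbers at the 5′ end, and genes that hold the same place in different clusters form a paralog group. Their proteins bind DNA together with TALE homeodomain cofactors of the PBX and MEIS families. Polycomb complexes keep unused HOX genes silent and Trithorax complexes keep used ones active, and retinoic acid is a classical inducer of the anterior genes. Neuroblastoma arises from the sympathetic lineage of the trunk neural crest, whose cells keep a HOX code from their axial level.

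Library sizes were between 18925786 and 19886214 counts assigned to genes. METTL14 itself had 753 and 754 counts in the control libraries and 303 and 321 in the knockdown libraries, a log2 fold change of -1.26 (standard error 0.0832, with an adjusted p = 3.6e-11, edgeR quasi-likelihood test with Benjamini-Hochberg adjustment over 16309 genes). Each of 12 noradrenergic neuroblastoma markers was present, with a summed level of 6060 to 6210 CPM (counts scaled to a common library size) in the controls and 5970 to 6030 in the knockdown, while SOX10, which defines Schwann cells, had 0 counts in every library. The 6 fibroblast markers, of which none was at or under 3 counts in every library, summed to 333 to 335 CPM in the controls and 305 to 323 in the knockdown. Most of that sum was LUM (4739 and 4552 counts in shNC, 4700 and 4896 in shMETTL14), while PDGFRA went from 328 and 316 to 61 and 85, COL3A1 from 610 and 532 to 330 and 328, and COL1A2 from 2 and 6 to 11 and 18. The part of these shifts in the HOX values was not tested. Changes were spread over the transcriptome: 52.5% of the genes tested were called at an adjusted p under 0.05, 27.2% as higher and 25.3% as lower in shMETTL14, and in 75.5% the control and knockdown libraries did not overlap in CPM. With upper quartile scaling in place of TMM scaling the split of called genes moved from 4438 higher and 4123 lower to 3550 higher and 4961 lower. In such bulk libraries, fewer cells that use a gene and less RNA of it per cell cannot be told apart.

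SK-N-BE(2) cells used the HOXC and HOXD clusters and left the HOXA and HOXB clusters almost unread. The HOXC cluster summed to 2410 and 2232 counts in the shNC libraries and to 2183 and 2051 in the shMETTL14 libraries. For the HOXD cluster the sums were 1869 and 1780 counts in shNC and 1301 and 1408 in shMETTL14. All 11 HOXA genes together had 3 counts over the 4 libraries and all 10 HOXB genes had 5. No HOXA or HOXB gene exceeded 1 count in any library, and 8 HOXA genes and 6 HOXB genes were at 0 throughout; a count of 0 allows up to 3 counts, or 0.151 to 0.157 CPM, in a library, and this limit covers counting error only. METTL14 knockdown did not bring either cluster to a detectable level at this depth. The HOXA genes with a read were HOXA10 and HOXA11 (1 count each in shMETTL14) and HOXA13 (1 count in shNC). The HOXB genes with a read were HOXB2, HOXB3, HOXB7 and HOXB9, and of these HOXB7 had 1 count in each knockdown library.

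**Figure D1:**
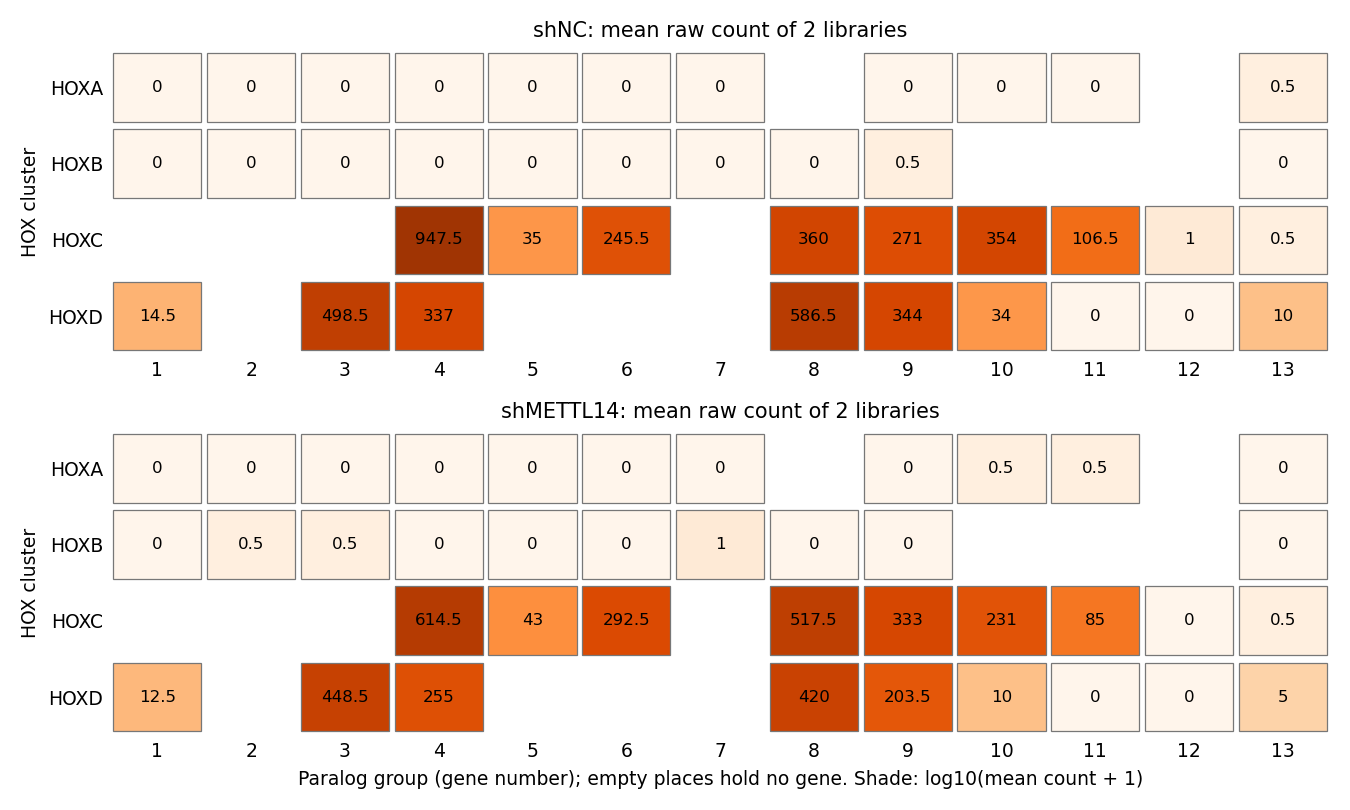
Mean raw count of each HOX gene over the 2 shNC libraries (top) and the 2 shMETTL14 libraries (bottom), with the clusters in rows and the paralog groups in columns; the shade follows log10 of the mean count plus 1, and empty places hold no gene. The HOXA and HOXB rows hold means of 0 to 1, while HOXC4 holds the highest mean in both groups, at 947.5 and 614.5 counts.

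The active stretch ended before the posterior end of both clusters. In the HOXC cluster, HOXC4 to HOXC11 were read and HOXC12 and HOXC13 had at most 2 counts in any library. Within the HOXD cluster, HOXD1 to HOXD10 were read, HOXD11 and HOXD12 had 0 counts in every library, and the posterior-most gene HOXD13, which patterns digits, had 8 and 12 counts in shNC and 4 and 6 in shMETTL14. HOXD13 was too low for the test, although its libraries did not overlap. Levels can be set against each other per kilobase of exon that no other listed gene shares. On that scale HOXC4 was the most abundant HOX mRNA in the controls, at 21.6 ± 0.404 CPM per kb (SD, n = 2), followed by HOXD4 at 11.8 ± 1.08 and HOXD8 at 11.4 ± 0.227, which lay within the spread of each other. HOXC8 (9.75 ± 0.0848), HOXD9 (9.41 ± 0.469), HOXC9 (9.13 ± 1.13), HOXC10 (8.60 ± 1.37) and HOXD3 (8.41 ± 0.634) formed a middle group whose neighbours did not differ beyond their spread. HOXC6 (4.22 ± 0.69), HOXC5 (2.48 ± 0.27) and HOXC11 (1.67 ± 0.0362) were lower, and HOXD1 (0.900 ± 0.244) and HOXD10 (0.775 ± 0.14) were the lowest of the tested genes. In shMETTL14, HOXC4 at 14.1 ± 0.267 and HOXC8 at 14.1 ± 0.503 CPM per kb stood level at the top. Next came HOXC9 at 11.3 ± 0.679, HOXD4 at 8.98 ± 0.607 and HOXD8 at 8.23 ± 0.433.

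A total of 13 HOX genes passed the filter on low counts, 7 of HOXC and 6 of HOXD. Of these, 2 rose, 6 fell and 5 were not called, so 8 of 13 were called where 52.5% of all tested genes were. The 2 that rose stand against a background of 27.2% and the 6 that fell against 25.3%. The libraries of the groups did not overlap for 12 of the 13, against 75.5% of all tested genes. The median log2 fold change was -0.32 over the tested HOX genes and -0.00095 over all tested genes. By cluster it was 0.26 in HOXC, where 2 genes rose and 2 fell, and -0.43 in HOXD, where none rose and 4 fell. By position it was -0.17 in paralog groups 1 to 3 (2 genes, none called), -0.07 in groups 4 to 8 (6 genes, 1 higher and 3 lower) and -0.61 in groups 9 to 13 (5 genes, 1 higher and 3 lower).

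**Figure D2:**
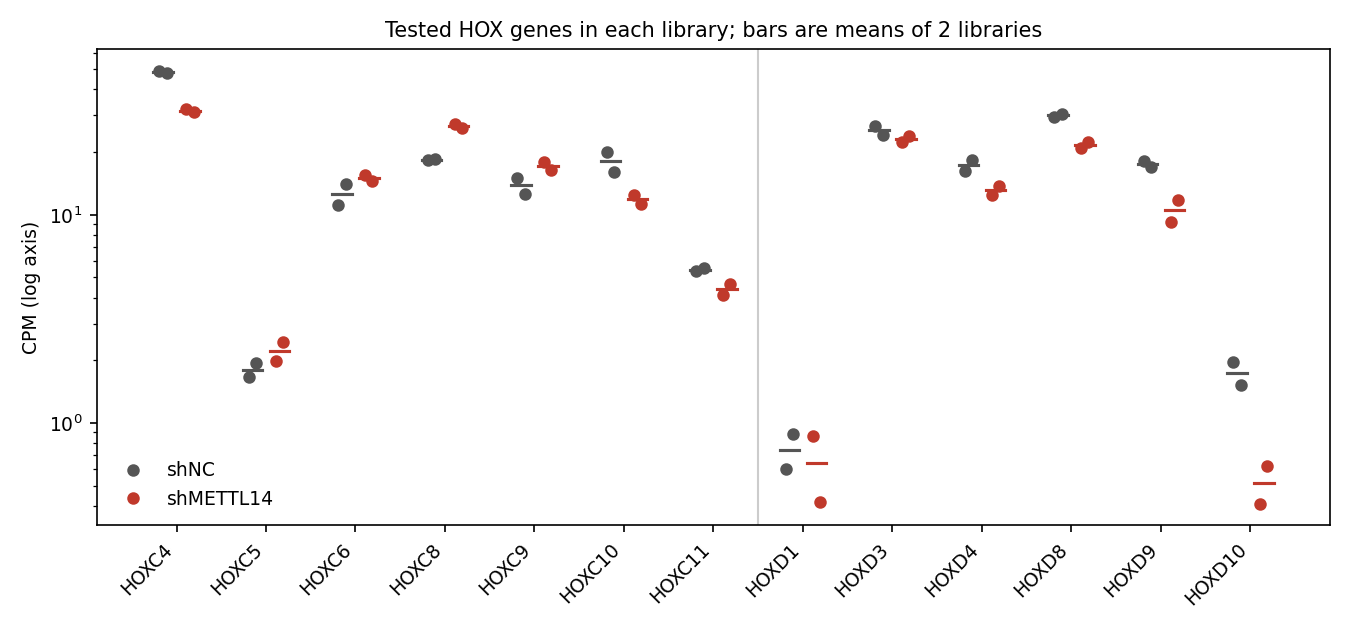
Level of each of the 13 tested HOX genes in every library, in CPM on a log axis, with shNC in grey, shMETTL14 in red and a bar at the mean of each pair. The red points of HOXC8 and HOXC9 lie above the grey ones, those of HOXC4, HOXC10, HOXD4, HOXD8, HOXD9 and HOXD10 lie below them, and those of HOXD1 overlap.

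Among the anterior HOXC genes, HOXC4 fell while its neighbours did not. HOXC4, the most 3′ gene of its cluster, had 979 and 916 counts in shNC and 628 and 601 in shMETTL14. Both knockdown libraries were lower than both controls, and the level dropped from 48.5 ± 0.906 to 31.6 ± 0.598 CPM (log2 fold change -0.62, SE 0.068, adjusted p = 1.2e-07). The next gene, HOXC5, had 33 and 37 counts in shNC and 39 and 47 in shMETTL14. The knockdown libraries were the higher ones, but at this depth the log2 fold change of 0.31 (standard error 0.285, with an adjusted p = 0.39) did not pass the test. HOXC6, a gene of the forelimb-level spinal cord, had 222 and 269 counts in shNC and 304 and 281 in shMETTL14. It also had both knockdown libraries above the controls without passing the test (log2 fold change 0.26, SE 0.116, adjusted p = 0.064); it passed with a replicate block (adjusted p = 0.035), without shNC replicate 2 (log2 fold change 0.44) and without shMETTL14 replicate 2 (0.31), whereas without shNC replicate 1 the log2 fold change was 0.0963 (adjusted p = 0.57) and with DESeq2 the adjusted p was 0.26.

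HOXC8 and HOXC9, in the middle of the cluster, rose. HOXC8, which patterns the thoracic region and brachial motor neuron pools, had 365 and 355 counts in shNC and 535 and 500 in shMETTL14. These values did not overlap, and the log2 fold change was 0.53 (SE 0.0857, adjusted p = 1.9e-05), a level at 145% of the control. HOXC9, which sets the thoracic identity of motor neurons and is also known as a differentiation gene in neuroblastoma cells, had 300 and 242 counts in shNC and 350 and 316 in shMETTL14. Its rise was smaller, at a log2 fold change of 0.31 (standard error 0.107, with an adjusted p = 0.020), and both knockdown libraries exceeded both controls. That call did not hold with upper quartile scaling (adjusted p = 0.066), with DESeq2 (0.13), without shNC replicate 2 (0.21) or without shMETTL14 replicate 1 (0.11), with a log2 fold change between 0.19 and 0.30 in these fits.

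Of the posterior HOXC genes, HOXC10 fell and HOXC11 did not pass the test. HOXC10, a marker of lumbar motor neurons, had 401 and 307 counts in shNC and 245 and 217 in shMETTL14. Both knockdown values were below both controls, with a log2 fold change of -0.60 (standard error 0.116, with an adjusted p = 1.4e-04). HOXC11, a gene of the lumbosacral and hindlimb level, had 107 and 106 counts in shNC and 81 and 89 in shMETTL14. The groups did not overlap, but the log2 fold change of -0.32 (standard error 0.175, with an adjusted p = 0.14) did not pass the test. HOXC12 had 2 counts in shNC replicate 1 and 0 elsewhere, and HOXC13 had 1 count in 1 library of each group.

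HOXC9 and HOXC10 are neighbours, and their fold changes differed by -0.91 (combined SE 0.158, with the errors taken as independent). A ratio of 2 genes within a library does not depend on how libraries are scaled, although the smallest p that an exact permutation test of 2 against 2 libraries can give is 0.333. The ratio of HOXC9 to HOXC10 counts was 0.748 and 0.788 in shNC and 1.43 and 1.46 in shMETTL14 (exact permutation p = 0.333, two-sided). HOXC10 was thus the more counted of the pair in both controls and HOXC9 in both knockdown libraries. The ratio of HOXC8 to HOXC4 was 0.373 and 0.388 in shNC and 0.852 and 0.832 in shMETTL14, a 2.21-fold difference with the same exact p = 0.333. HOXC5 differed from HOXC4 by 0.92 in log2 fold change (combined SE 0.293), whereas HOXC6 and HOXC5 differed by -0.04 (combined SE 0.308).

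In the HOXD cluster no gene rose, and the tested genes from HOXD3 to HOXD10 stood lower in the knockdown the further they lay toward the posterior end. HOXD1, the most anterior HOXD gene, had 12 and 17 counts in shNC and 17 and 8 in shMETTL14. Its libraries overlapped, and the log2 fold change of -0.21 (standard error 0.487, with an adjusted p = 0.75) changed sign when 1 library was left out. HOXD3 had 535 and 462 counts in shNC and 438 and 459 in shMETTL14. Here the groups came within 3 counts of each other, and the log2 fold change of -0.14 (standard error 0.0865, with an adjusted p = 0.18) did not pass the test; with upper quartile scaling it was -0.21 (adjusted p = 0.047), and without shNC replicate 1 it was -0.067 (adjusted p = 0.64). HOXD4, a retinoic acid-responsive gene of the posterior hindbrain, had 322 and 352 counts in shNC and 245 and 265 in shMETTL14. It fell, with no overlap, by 0.39 on the log2 scale (standard error 0.106, with an adjusted p = 0.0035), although without shNC replicate 2 the call was lost (log2 fold change -0.29, adjusted p = 0.063).

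HOXD8, the most counted HOXD gene of the controls, had 590 and 583 counts in shNC and 408 and 432 in shMETTL14. The fall to 72.1% of the control (log2 fold change -0.47, SE 0.0823, adjusted p = 5e-05) was larger than the spread between replicates. HOXD9, which acts in limb and lumbar patterning, had 363 and 325 counts in shNC and 181 and 226 in shMETTL14. Both knockdown libraries were well below the controls, at 59.6% of their level (log2 fold change -0.75, SE 0.116, adjusted p = 1.3e-05). HOXD10, a lumbar motor neuron gene, had 39 and 29 counts in shNC and 8 and 12 in shMETTL14. It had the largest fold change of the tested HOX genes, -1.74 (SE 0.409, adjusted p = 0.0011), and was the only called HOX gene to pass a 2-fold criterion as well; these are low counts, and HOXD10 was not tested when 10 counts were required in every library.

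From HOXD3 through HOXD4, HOXD8, HOXD9 and HOXD10 the log2 fold changes followed the order of the genes. The order does not take in the ends of the cluster. HOXD1 stood at -0.21 (SE 0.487), lower than HOXD3, and HOXD13 was too low for the test. Most single steps along that order were not large against their error: HOXD4 differed from HOXD3 by -0.25 (combined SE 0.137), HOXD8 from HOXD4 by -0.08 (0.134) and HOXD9 from HOXD8 by -0.27 (0.142). The step from HOXD9 to HOXD10 was -0.99 (combined SE 0.425) and the whole distance from HOXD3 to HOXD9 was -0.60 (0.145). Within libraries, the ratio of HOXD9 to HOXD3 counts was 0.679 and 0.703 in shNC and 0.413 and 0.492 in shMETTL14. The ratio of HOXD10 to HOXD3 was 0.0729 and 0.0628 in shNC and 0.0183 and 0.0261 in shMETTL14. Neither ratio overlapped between the groups (exact permutation p = 0.333 for each). In the HOXC cluster no such order was seen, since HOXC4 and HOXC10 fell while HOXC8 and HOXC9, which lie between them, rose.

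**Figure D3:**
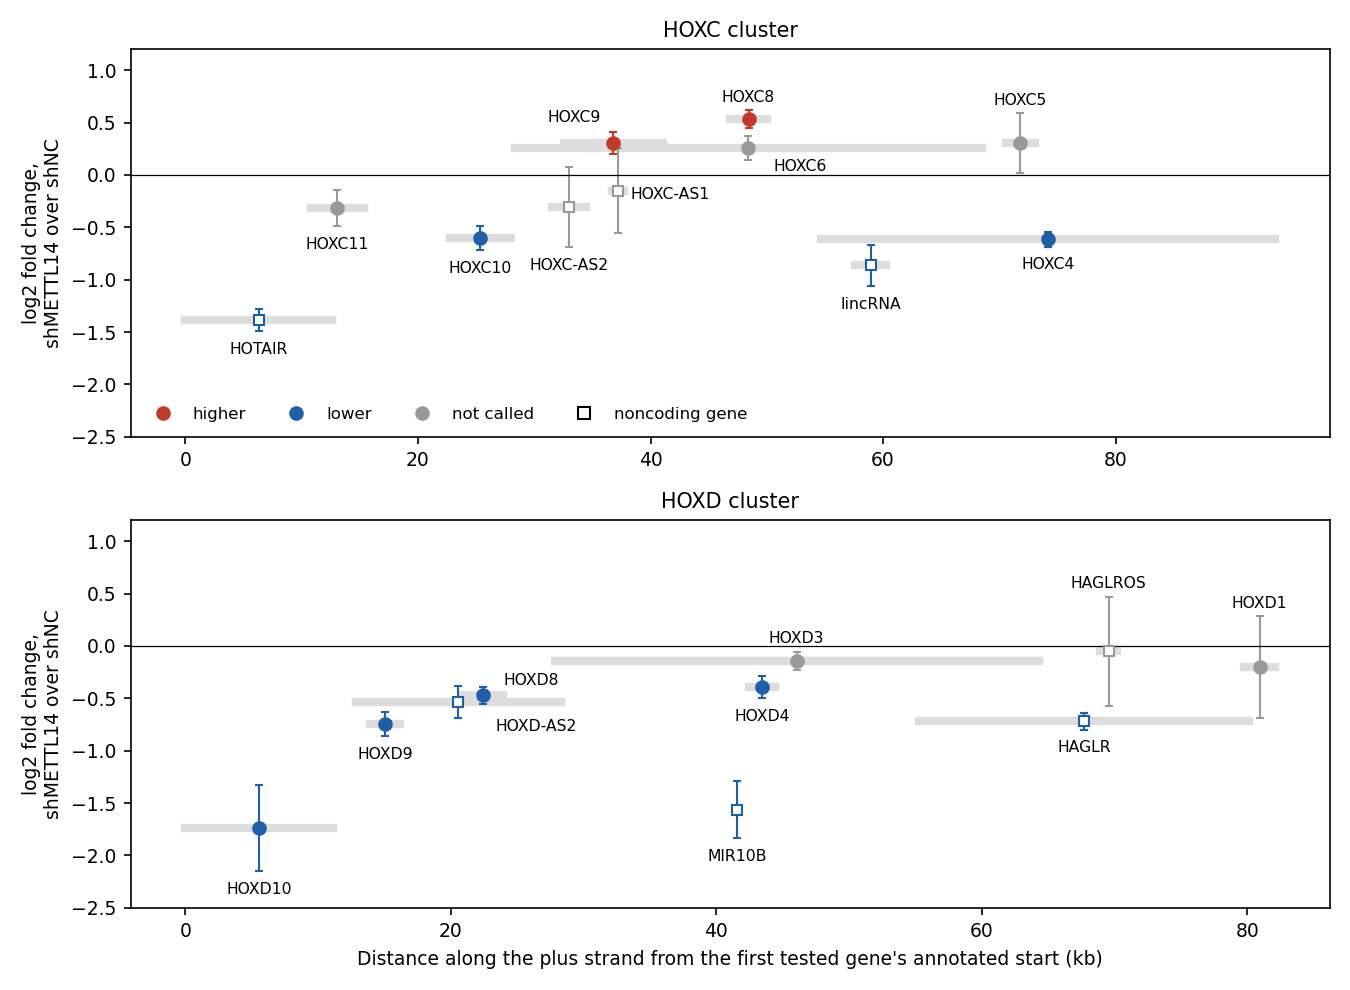
Log2 fold change of shMETTL14 over shNC with its standard error for the tested genes of the HOXC (top) and HOXD (bottom) clusters, plotted at the middle of each gene as distance in kb from the first tested gene, with grey bars for the annotated spans and squares for noncoding genes. The HOXC genes that rose lie between HOXC10 and HOXC4, both of which fell, while in the HOXD cluster the values go down from HOXD3 to HOXD10.

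Paralogs changed in opposite directions in groups 8 and 9, and fell in both clusters in groups 4 and 10. HOXC8 rose and HOXD8 fell: the difference between their log2 fold changes was 1.0 (combined SE 0.119), and the ratio of HOXC8 to HOXD8 counts went from 0.619 and 0.609 in shNC to 1.31 and 1.16 in shMETTL14. HOXC9 and HOXD9 differed by 1.05 (combined SE 0.158), with count ratios of 0.826 and 0.745 in shNC and 1.93 and 1.40 in shMETTL14. In both pairs the HOXD gene had more counts in the controls and the HOXC gene had more in the knockdown. HOXC10 and HOXD10 both fell, HOXD10 more so by 1.14 (combined SE 0.425). HOXC4 and HOXD4 also both fell, and their fold changes differed by only -0.22 (combined SE 0.126), with a ratio of HOXC4 to HOXD4 of 3.04 and 2.60 in shNC and 2.56 and 2.27 in shMETTL14. Both cluster sums were lower in the knockdown. The HOXC cluster summed to 121 and 117 CPM in shNC and to 111 and 107 in shMETTL14. For the HOXD cluster the sums were 93.8 and 93 CPM in shNC and 66.4 and 73.2 in shMETTL14. The share of all HOX counts that came from the HOXC cluster was 56.3% and 55.6% in shNC and 62.6% and 59.2% in shMETTL14.

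**Figure D4:**
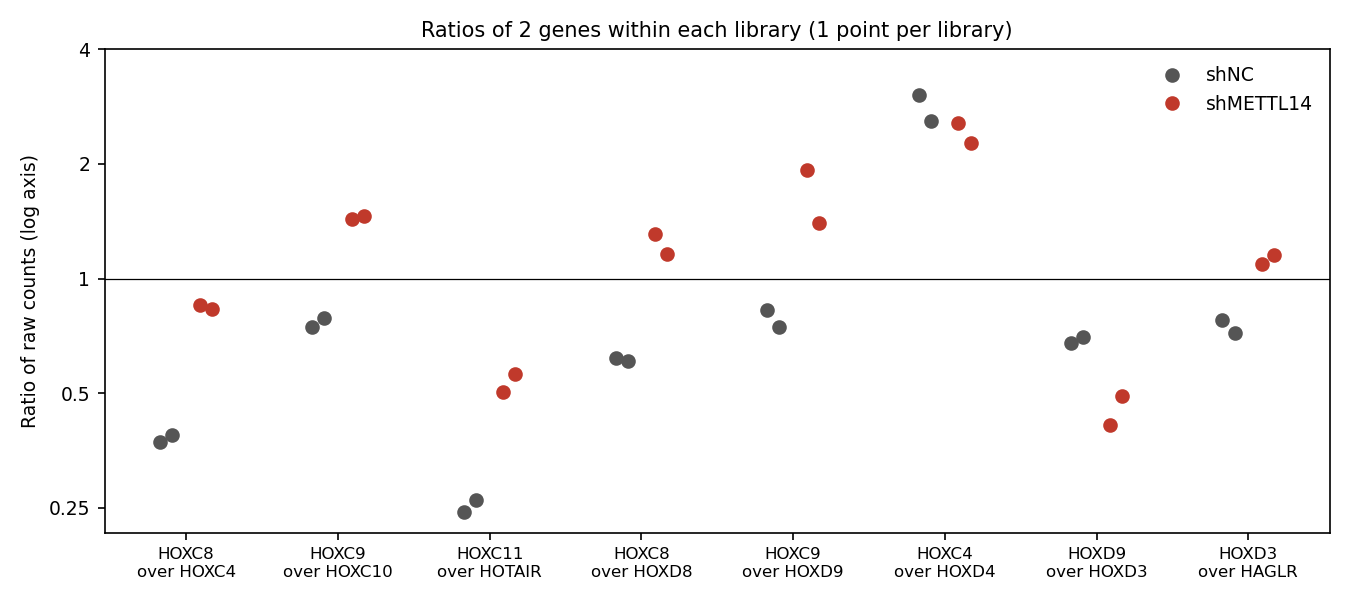
Ratio of the raw counts of 2 genes within each library, on a log axis, with 1 point per library (shNC grey, shMETTL14 red). The ratio of HOXC8 to HOXC4 lies at 0.373 and 0.388 in shNC and at 0.852 and 0.832 in shMETTL14, and the ratios of HOXC9 to HOXC10, HOXC8 to HOXD8 and HOXC9 to HOXD9 pass from below 1 to above 1.

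Several HOX genes share exon sequence with a neighbour, and reads in shared bases may not have been given to any gene. HOXC4 and HOXC6 share 484 exon bases in GENCODE release 29, and RefSeq places a start of HOXC4, HOXC5 and HOXC6 at the same base (chromosome 12, position 54016888, GRCh38.p14). HOXC5 keeps 724 of its 1805 exon bases to itself. It shares 1081 with a processed transcript that release 29 also names HOXC5, and 611 with the protein-coding entry AC012531.2. Counts of these entries are not reported here, so the HOXC5 values may hold only part of its reads. HOXD10 and HOXD11 share 452 bases. HOXD3 overlaps 379 exon bases of HOXD-AS2 and 134 of HAGLR on the other strand, and whether the counting used strand is not given in the sources used here, so reads of these partners cannot be told apart. HOXC8, HOXC11, HOXD4, HOXD8 and HOXD9 share no exon base with another listed gene.

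No noncoding gene of the HOX clusters rose. Of 25 such genes listed, 24 were in the table and 7 were tested: 4 fell and 3 were not called, a share near the 52.5% called among all tested genes, with a median log2 fold change of -0.53. HOTAIR, a long noncoding RNA transcribed opposite to HOXC11 and known for its binding to Polycomb proteins, had 439 and 405 counts in shNC and 161 and 159 in shMETTL14. Its libraries were far apart (log2 fold change -1.39, SE 0.105, adjusted p = 3.4e-10). The ratio of HOXC11 to HOTAIR was 0.244 and 0.262 in shNC and 0.503 and 0.560 in shMETTL14, so HOTAIR declined more than its neighbour in every pairing of libraries. An unnamed intergenic RNA inside the HOXC4 span (ENSG00000260597, chromosome 12, 54019910 to 54022589, GRCh38), singled out after its values were seen, had 128 and 103 counts in shNC and 55 and 71 in shMETTL14. It fell by 0.86 on the log2 scale (standard error 0.195, with an adjusted p = 8e-04). The annotated span of HOXC6 (53990624 to 54030823) also holds it. HOXC4 fell, whereas HOXC6 stood at a log2 fold change of 0.26 and was not called. HOXC-AS1 had 20 and 18 counts in shNC and 20 and 14 in shMETTL14. HOXC-AS2 had 22 and 29 in shNC and 25 and 16 in shMETTL14. Both antisense RNAs overlapped between groups and were not called.

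On the HOXD side, MIR10B is a microRNA gene upstream of HOXD4 and inside the annotated span of HOXD3. It had 89 and 78 counts in shNC and 36 and 20 in shMETTL14. The log2 fold change was -1.56 (SE 0.27, adjusted p = 4.5e-05), and the ratio of HOXD4 to MIR10B rose from 3.62 and 4.51 in shNC to 6.81 and 13.2 in shMETTL14 without overlap. These are reads over the annotated hairpin of 110 bases, not a measurement of the mature microRNA. The mature 3p sequence of RefSeq is shown because this was the HOX microRNA gene with reads enough to test, with its seed, bases 2 to 8, in capitals (chr2:176150368-176150389, plus strand, GRCh38.p14).
hsa-miR-10b-3p: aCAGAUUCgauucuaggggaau
HAGLR, an antisense RNA that reaches from HOXD1 to HOXD3, had 686 and 641 counts in shNC and 403 and 398 in shMETTL14. It fell (log2 fold change -0.72, SE 0.0796, adjusted p = 1.2e-07) beside HOXD3, which was not called, and the ratio of HOXD3 to HAGLR was 0.780 and 0.721 in shNC and 1.09 and 1.15 in shMETTL14. HOXD-AS2, antisense across HOXD8 and HOXD9, had 183 and 163 counts in shNC and 102 and 135 in shMETTL14. It fell as both of those genes did (log2 fold change -0.53, SE 0.154, adjusted p = 0.0059), a call that was lost with DESeq2 (adjusted p = 0.054) and without shMETTL14 replicate 1 (0.11). HAGLROS had 14 and 9 counts in shNC and 7 and 15 in shMETTL14. Its groups overlapped and it was not called.

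The promoter windows of the HOX genes differ in base composition. RefSeq promoter windows, which run from 250 bases before to 50 bases after a start, were at hand for 20 of the 39 HOX genes and for 8 of those with more than 3 counts in some library. The windows of those 8 genes held a median of 23.5 CpG dinucleotides, ranging from 4 in HOXD4 to 36 in HOXD1. The 19 windows of HOX genes with at most 3 counts held a median of 21, and all 35116 windows held a median of 14. Windows are not independent genes here. HOXC4 and HOXC5 have the same window, counted for each, and several of the 19 windows belong to HOXA3. HOXD3 and HOXD8 are shown because they are the 2 tested genes whose upstream window is free of annotated exons for at least 200 bases, and because HOXD8 fell while HOXD3 was not called. Capitals mark CCAAT boxes (CCAAT, shared by 34.6% of all windows on either strand) and GC boxes (GGGCGG, 45% of all windows). The HOXD8 window held neither of them. The first sequence is chr2:176157057-176157306 and the second chr2:176129455-176129693, both on the plus strand of GRCh38.p14. The HOXD3 window lies inside the annotated span of HOXD3 (176136612 to 176173102). It precedes a start within the gene and not its 5′ end.
HOXD3: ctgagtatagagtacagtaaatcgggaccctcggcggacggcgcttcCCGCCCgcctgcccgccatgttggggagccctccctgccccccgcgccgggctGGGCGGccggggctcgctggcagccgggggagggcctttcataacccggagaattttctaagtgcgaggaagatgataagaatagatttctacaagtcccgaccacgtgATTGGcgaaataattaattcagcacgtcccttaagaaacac
HOXD8: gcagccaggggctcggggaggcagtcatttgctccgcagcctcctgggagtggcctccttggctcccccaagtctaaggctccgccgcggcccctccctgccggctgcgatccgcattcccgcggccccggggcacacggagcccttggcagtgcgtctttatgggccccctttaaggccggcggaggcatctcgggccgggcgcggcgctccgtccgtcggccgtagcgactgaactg
A TATA box (TATAAA, 11.5% of all windows) was found in windows of HOXA3, HOXA9, HOXA10 and HOXD13. Of the tested HOX genes only HOXC4, HOXC5, HOXD1, HOXD3, HOXD4, HOXD8 and HOXD10 had a window, and none of these held the box. A PBX-HOX element (TGATNNAT, 7.4% of all windows) was found only in the HOXA2, HOXB1 and HOXD11 windows among the HOX genes. These 3 genes had 0 counts in every library. A match of letters is a description of the sequence and not a binding site.

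All 11 TALE cofactors were tested, and 1 rose and 6 fell, where 27.2% of all tested genes rose and 25.3% fell. Their median log2 fold change was -0.17. PKNOX2 had 114 and 93 counts in shNC and 18 and 14 in shMETTL14. It had the largest change of the family, with a log2 fold change of -2.67 (standard error 0.272, with an adjusted p = 3.4e-08). PBX3 fell by 0.33, MEIS2 by 0.25 and PKNOX1 by 0.25 on the log2 scale. The PKNOX1 call did not hold with DESeq2 (adjusted p = 0.067) or without shMETTL14 replicate 2 (log2 fold change -0.14, adjusted p = 0.25).

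Of 26 Polycomb genes, all tested, 11 rose and 6 fell, beside 27.2% and 25.3% of all tested genes, with a median log2 fold change of 0.08. PCGF5 and BMI1, which are subunits of Polycomb repressive complex 1, had the largest rises. PCGF5 went from 121 and 89 counts in shNC to 255 and 232 in shMETTL14, and BMI1 went from 449 and 431 to 712 and 694. Neither gene overlapped between groups (log2 fold change 1.22, adjusted p = 2.4e-07, and 0.69, adjusted p = 1.5e-07). KDM2B rose by 0.35 and PHF1 by 0.35, whereas CBX7 was lower by 0.93 (adjusted p = 0.0063, but 0.052 with DESeq2 and 0.074 without shMETTL14 replicate 2). Of 16 Trithorax and H3K27 demethylase genes, 6 rose and 7 fell around a median of -0.0037, and 52.5% of all tested genes were called. DPY30 and WDR5, core subunits of the H3K4 methyltransferase complexes, rose by 0.41 and 0.34, DOT1L rose by 0.31 and KDM6B by 0.30, and KMT2E fell by 0.31. Without shNC replicate 2 the KDM6B value was 0.154 and its call was lost (adjusted p = 0.094).

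Among genes that induce HOX expression or delimit its domains, including retinoic acid receptors, 10 of 17 were tested. Of these, 2 rose and 6 fell, against 27.2% and 25.3% of all tested genes, and the median log2 fold change was -0.35. RXRA, the shared partner of the retinoic acid receptors, had 573 and 489 counts in shNC and 294 and 293 in shMETTL14. Both knockdown libraries were lower (log2 fold change -0.84, adjusted p = 9.7e-08), and RARB fell by 0.39. EGR2, which acts upstream of anterior HOX genes in the hindbrain, fell by 0.67. CDX1 had 22 and 28 counts in shNC and 13 and 9 in shMETTL14, a fall (log2 fold change -1.17, adjusted p = 0.026) that was not called with DESeq2 (adjusted p = 0.14), without shNC replicate 2 (0.2), or without shMETTL14 replicate 1 (0.052) or 2 (0.19).

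Genes that flank the clusters did not share 1 direction. Of 19 listed, 12 were tested, 2 rose and 6 fell, beside 27.2% and 25.3% of all tested genes, with a median of -0.14. Next to the HOXC cluster, CALCOCO1 fell by 0.81, HNRNPA1 by 0.38 and CBX5 by 0.28, while SMUG1 and ATP5MC2 were not called. Of the genes listed around the HOXD cluster, ATP5MC3 rose by 0.30 (adjusted p = 6.8e-06). It ends at 175184607 on chromosome 2, farther from the cluster than LNPK, while HOXD13 starts at 176092891. The closer genes MTX2, with a log2 fold change of 0.00012 (SE 0.0525), and LNPK, with 0.07 (SE 0.0486), were not called. Around the silent HOXA and HOXB clusters, HIBADH fell by 0.36 and CALCOCO2 by 0.28, SNX11 rose by 0.62, and SKAP2 fell by 1.05 from 44 and 25 counts to 23 and 10, a call lost with DESeq2 (adjusted p = 0.14), without shNC replicate 1 (log2 fold change -0.62, adjusted p = 0.38) and without shMETTL14 replicate 2 (-0.57, adjusted p = 0.31).

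Of 48 other homeobox genes of the same superclass and related ones, 15 were tested, 5 rose and 5 fell, where 52.5% of all tested genes were called. DBX1, a gene of spinal interneuron progenitors, had 7 and 5 counts in shNC and 70 and 72 in shMETTL14. It went from near the detection floor to clear expression (log2 fold change 3.55, adjusted p = 3.9e-08), and no HOX gene did so. DLX5 rose by 1.43, NKX6-1 was lower by 0.91 (adjusted p = 0.042, but 0.17 with DESeq2 and 0.058 to 0.29 without shNC replicate 1, shNC replicate 2 or shMETTL14 replicate 2), and DLX4 went from 13 and 17 counts to 2 in each knockdown library. Of the 9 sympathetic lineage transcription factors and receptors, all tested, 2 rose and 6 fell, again beside 27.2% and 25.3%. TBX20 fell by 0.42 and HAND2 by 0.29, and ISL1 rose by 0.28.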

How the data were processed

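Raw read counts per gene were deposited by the authors as 1 table of 4 RNA-seq libraries of SK-N-BE(2) cells. The submitters' processing notes name HISAT2 2.1.0, StringTie 1.3.6, HTSeq 0.13.5 and edgeR with GRCh38, without their roles; the annotation release and the strand setting are not given in the sources used here. HTSeq summary rows, of which reads without a gene were 19.1 to 19.9% and ambiguous reads 5.01 to 5.32% of each library, were left out. Ambiguous reads bear on HOX genes because several share exons.

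Symbols matched 60401 of 60671 identifiers, and positions and exon lengths came from GENCODE release 29 (GRCh38). Groups followed the labels, shNC against shMETTL14, with 2 libraries each. Counts were tested with edgeR 4.0.16 (R 4.3.3; TMM scaling, filterByExpr at 10 counts per library and 15 in total, quasi-likelihood F-test, Benjamini-Hochberg adjustment over 16309 genes, called at 0.05), checked on simulated data first. CPM uses TMM-scaled library sizes. Differences between 2 fold changes carry the root of the summed squared SEs. Alternatives were DESeq2 1.42.0, other scalings and filters, a replicate block and leaving out each library. Replicates were not copies of 1 library: the mean chi-square per gene was 2.66 and 2.21 within groups and 30.5 to 31.5 between them. Promoter and microRNA sequences are from RefSeq (GRCh38.p14).

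The members and the other gene lists were chosen with earlier results of these data known. Named genes are every HOX gene, every tested noncoding HOX cluster gene, and up to 5 called genes of each other list with the largest fold changes; some genes that this rule names are not reported here. The remaining names (HOXC cluster intergenic RNA, CALCOCO2, CBX5, SMUG1, ATP5MC2, ATP5MC3, MTX2 and LNPK) were added after their values were seen.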

Additional observations from a re-analysis of the deposited data

How the results depend on the processing

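METTL14 and each called HOX gene kept their direction in the 11 alternative fits that tested them. The number of HOX genes called stayed between 7 and 9, of 11 to 23 tested, and was 8 with RLE scaling, upper quartile scaling, library size alone or no filter on low counts; requiring at least a 2-fold change as well left 1 HOX gene (HOXD10) and 1433 of all genes. Leaving out 1 library at a time, HOXD1 ranged from -0.82 to 0.23, HOXC-AS1 from -0.41 to 0.0796 and HAGLROS from -0.70 to 0.41 in log2 fold change, and the median HOX log2 fold change from -0.43 to -0.29; the lowest of these medians came without shNC replicate 1, and the cause was not tested. The replicate numbers are shared between groups, but same-numbered libraries did not deviate together (Pearson r = 0.00483 across genes). The labels do not say whether same-numbered libraries were prepared together, and this value cannot settle it. With a replicate block 9 HOX genes and 8926 genes were called and METTL14 stood at -1.26. DESeq2 called 6022 genes and 7 HOX genes. HOXD1, HOXD10, HOXC5 and the HOXA and HOXB genes are limited by their counts.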
